A study of Canis lupus familiaris with 9 samples.

Results

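Expression of 8 marker genes of dendritic cells and neutrophils was followed in canine CD4+ peripheral T cell lymphoma (PTCL), a malignancy of post-thymic T lymphocytes. The genes were CLEC9A, XCR1, CD1E, BATF3, IRF8 and ZBTB46 for dendritic cells and S100A12 and MPO for neutrophils. They were selected by symbol from the 28008 features of the deposited files, and all 8 were found, each as 1 feature. The series holds 9 libraries. In the first group are 3 libraries of CD4+ T cells sorted from healthy female hounds aged 1 year that were not neutered. The second is formed by 3 lymphomas of Boxers, from castrated males aged 6 years (Boxer lymphomas 1 and 3) and a spayed female aged 8 years (Boxer lymphoma 2). The third is formed by 3 lymphomas of other breeds, from a spayed Cavalier King Charles Spaniel aged 3 years (other-breed lymphoma 1), a spayed Rhodesian Ridgeback aged 4 years (other-breed lymphoma 2) and a castrated Collie aged 11 years (other-breed lymphoma 3). Only the controls are named as sorted, and neither the tissue of the lymphomas nor any sorting of them is given. Disease therefore cannot be told apart from sorting, breed, age or neutering in these groups.

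Dendritic cells take up antigen and present it to T cells. The conventional type 1 subset takes up material of dead cells and depends on the transcription factors BATF3 and IRF8, and its surface receptors include CLEC9A and XCR1. Neutrophils are short-lived granulocytes that kill microbes with oxidants and granule proteins. MPO is made early, while their primary granules form, whereas S100A12 is abundant in the cytoplasm of mature neutrophils and is also made by monocytes. None of the 8 genes is a marker of CD4+ T cells, although activated T cells can express BATF3 and IRF8, B cells express IRF8, endothelial cells express ZBTB46 and cortical thymocytes express CD1 genes.

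The libraries held 11710623 to 18488468 reads, so 1 read corresponded to 0.789 to 1.36 normalised reads, the unit used below (reads divided by a size factor per library). The T cell gene CD3E lay between 13794 and 22222 normalised reads in all 9 libraries (CD4 was not found under its symbol and was not analysed here). Nothing in the labels says that the 3 controls came from separate dogs, so a p-value covers only the spread among these samples, which may be technical. In bulk RNA, more cells of a type and more RNA per cell cannot be told apart.

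Those of the 8 genes that had few or no reads in the sorted controls had reads in every lymphoma. Between 6 lymphomas and 3 controls, 7 of the 8 genes passed limma's test as higher and 0 as lower, at an adjusted p under 0.05. Of all 15977 genes tested, 19.4% were higher and 15.7% lower by the same rule, and the median log2 fold change was 0.05. All 8 genes passed the filter on low values (at least 10 normalised reads in at least 3 libraries). However, 6 were not at 10 or more in all 3 controls and could pass only with the lymphomas. Such a filter favours genes that are higher in the lymphomas, so the count of 7 is a description. IRF8 and ZBTB46 were above 10 in every control. CLEC9A, XCR1, CD1E, S100A12 and MPO were higher in all 6 lymphomas than in any control, a separation shown upwards by 18.5% of all genes tested.

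**Figure D1:**
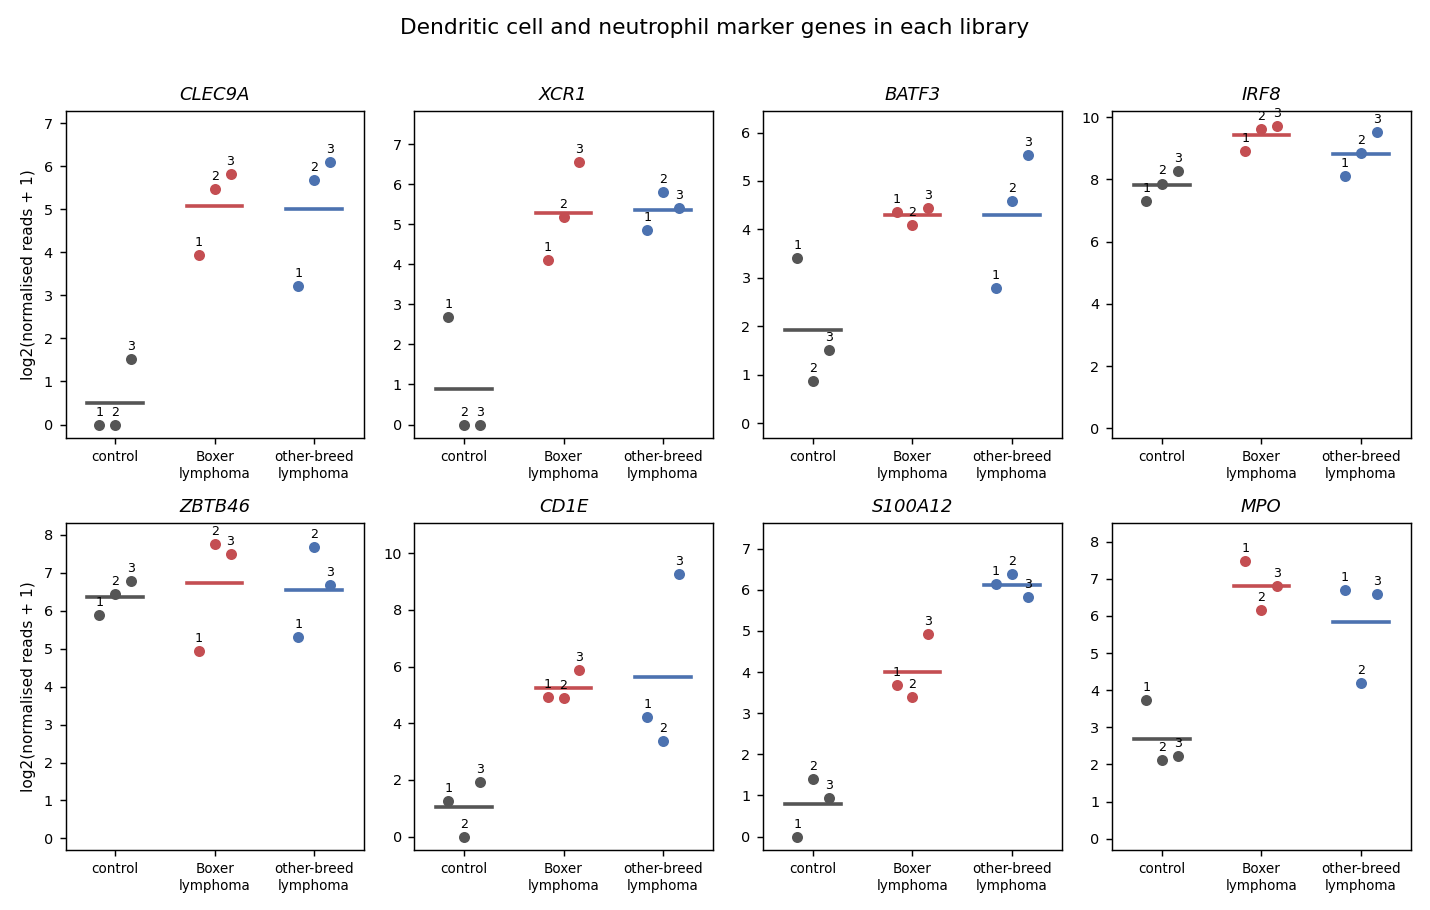
Level of each of the 8 genes by library, as log2(normalised reads + 1) on the vertical axis, with 1 point per library labelled by replicate number and a bar at the group mean of the log2 values (n = 3 per group). CLEC9A, XCR1, CD1E, S100A12 and MPO show a gap between the controls and all lymphomas, ZBTB46 shows none, and CD1E reaches 619 normalised reads in other-breed lymphoma 3.

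The receptors of type 1 conventional dendritic cells were almost silent in the controls. CLEC9A (ENSCAFG00000013531), a C-type lectin that senses dead cells, was at 0, 0 and 1.85 normalised reads in controls 1 to 3. It was at 14.4, 43.6 and 55.2 in Boxer lymphomas 1 to 3 and at 8.24, 50.5 and 67.9 in other-breed lymphomas 1 to 3. The groups did not overlap, and the lowest lymphomas were Boxer lymphoma 1 and other-breed lymphoma 1. The mean was 39.98 ± 23.6 in lymphomas (SD, n = 6) and 0.617 ± 1.07 in controls (SD, n = 3), a log2 difference of 4.54 ± 0.78 (SE, limma adjusted p = 0.00195). Only 2 reads of CLEC9A were counted in the controls together, against 251 in the lymphomas, so the pooled ratio of 60.7 has a 95% counting interval of 16.6 to 504. The call ended once age was a covariate (3.19, limma adjusted p = 0.0869). All controls were aged 1 year, so the age term came from the lymphomas alone and was extended below their ages. Fits with age therefore cannot separate age from disease, whether a call holds or ends.

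XCR1 (ENSCAFG00000013815), the receptor of the chemokine XCL1, was at 5.46 normalised reads in control 1 and 0 in controls 2 and 3. It was at 16.1, 35.1 and 93.7 in Boxer lymphomas 1 to 3 and at 28.2, 55.2 and 41.4 in other-breed lymphomas 1 to 3. All lymphomas were above control 1, and Boxer lymphoma 3 was the highest. XCR1 rose from 1.82 ± 3.15 (SD, n = 3) to 44.96 ± 27.2 (SD, n = 6), a log2 difference of 4.42 ± 0.76 (SE, limma adjusted p = 0.00201), and the pooled ratio of 33.7 has a counting interval of 13 to 125 from 4 control reads. XCR1 was called in all 20 fits of this comparison, including that with age as a covariate (4.36, limma adjusted p = 0.0456).

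Of the transcription factors, IRF8 and BATF3 rose less than the receptors, and ZBTB46 did not pass. IRF8 (ENSCAFG00000019919), which directs dendritic cell and monocyte fate and also acts in B cells, was already well expressed in the controls, at 156, 232 and 309 normalised reads. Boxer lymphomas 1 to 3 had 477, 780 and 845, and other-breed lymphomas 1 to 3 had 273, 456 and 729. Only other-breed lymphoma 1 fell within the range of the controls. The mean was 594 ± 224 in lymphomas (SD, n = 6) and 232 ± 76.9 in controls (SD, n = 3), a log2 difference of 1.30 ± 0.37 (SE, limma adjusted p = 0.0208). The call ended without control 1 (limma adjusted p = 0.102) or control 2 (0.067), with sex as a covariate (0.0922) and with age (fold change 0.45, 0.571).

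BATF3 (ENSCAFG00000032161), the AP-1 family factor needed by type 1 dendritic cells, had few reads in any library. Controls 1 to 3 were at 9.55, 0.826 and 1.85 normalised reads. Boxer lymphomas 1 to 3 were close together at 19.5, 16.1 and 20.8, while other-breed lymphomas 1 to 3 ranged over 5.89, 22.9 and 45.6. Other-breed lymphoma 1, with 5 reads, lay below control 1, and the other 5 lymphomas lay above every control. The log2 fold change was 2.37 ± 0.75 (SE, limma adjusted p = 0.032), and its call was the least stable of the 7. It held in 11 of 20 fits. It ended by edgeR on the recovered reads (adjusted p = 0.0574), with no filter on low values (limma adjusted p = 0.0527), with the replicate number as a block (0.0564), without control 2 (0.153), control 3 (0.117), Boxer lymphoma 3 (0.0533) or other-breed lymphoma 3 (0.0544), and with sex (0.123) or age (0.527) as a covariate.

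ZBTB46 (ENSCAFG00000013065), a zinc finger factor of conventional dendritic cells, differed among the lymphomas and not between the groups. Controls 1 to 3 were at 58.7, 85.9 and 109 normalised reads. Boxer lymphomas 1 to 3 had 29.7, 217 and 181, and other-breed lymphomas 1 to 3 had 38.8, 203 and 101. Boxer lymphoma 1 and other-breed lymphoma 1 lay below every control, Boxer lymphomas 2 and 3 and other-breed lymphoma 2 lay above every control, and other-breed lymphoma 3 lay within their range. The log2 fold change was 0.27 ± 0.67 (SE, limma adjusted p = 0.772), with an unadjusted 95% interval of -1.21 to 1.76, and with age as a covariate it was -0.28.

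CD1E (ENSCAFG00000011437), an intracellular member of the CD1 family that helps load lipid antigens, had the widest range among the lymphomas. It was at 1.36, 0 and 2.78 normalised reads in controls 1 to 3. Boxer lymphomas 1 to 3 had 29.7, 28.4 and 58.3, and other-breed lymphomas 1 to 3 had 17.7, 9.46 and 619. All 6 lymphomas were above the controls, and other-breed lymphoma 3 stood apart from the other 5. The log2 fold change was 4.38 ± 1.13 (SE, limma adjusted p = 0.0139), and without other-breed lymphoma 3 it was 3.61. The call ended without control 2 (limma adjusted p = 0.0701) and with sex (0.062) or age (fold change 1.05, 0.585) as a covariate.

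The remaining CD1 genes found were taken up after their values were seen, and reads of near copies in this family may be shared. CD1B also peaked in other-breed lymphoma 3, at 105 normalised reads against 0.948 to 19.8 in the other lymphomas and 0.826 to 4.63 in the controls, and it did not pass the filter on low values. CD1C was at 15.7 to 27.3 in the controls and 14.2 to 143 in the lymphomas (log2 fold change 1.27 ± 0.77, limma adjusted p = 0.221). CD1D was at 117 to 523 in the controls and 18.8 to 383 in the lymphomas (-1.53 ± 0.86, limma adjusted p = 0.184). The gap between controls and lymphomas seen for CD1E was thus not shared by CD1B, CD1C or CD1D.

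Both neutrophil genes rose, with different orders among the lymphomas. S100A12 (ENSCAFG00000023324), a calcium-binding alarmin, was at 0, 1.65 and 0.926 normalised reads in controls 1 to 3, or 3 reads in all. Boxer lymphomas 1 to 3 had 11.9, 9.48 and 29.2, and other-breed lymphomas 1 to 3 had 69.4, 82.8 and 55.2. The 3 groups did not overlap, with the controls lowest and the other-breed lymphomas highest. Over the 6 lymphomas the mean was 42.99 ± 30.7 (SD, n = 6) against 0.859 ± 0.828 in controls (SD, n = 3), a log2 difference of 4.27 ± 0.80 (SE, limma adjusted p = 0.00302). The pooled ratio of 43.2 has a counting interval of 14.6 to 211. S100A12 was called in all 21 fits of this comparison, including age as a covariate (4.98, limma adjusted p = 0.0303).

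MPO (ENSCAFG00000017474), the peroxidase of primary granules, was at 12.3, 3.30 and 3.70 normalised reads in controls 1 to 3. Boxer lymphomas 1 to 3 had 176, 70.2 and 110, and other-breed lymphomas 1 to 3 had 104, 17.3 and 95.5. Other-breed lymphoma 2, the highest for S100A12, was the lowest lymphoma for MPO. MPO rose from 6.43 ± 5.07 (SD, n = 3) to 95.5 ± 51.9 (SD, n = 6), a log2 difference of 3.63 ± 0.71 (SE, limma adjusted p = 0.00369). The call ended once age was a covariate (3.1, limma adjusted p = 0.0985).

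Each lymphoma group was also set against the same 3 controls, so these results share their controls. As above, 6 of the 8 genes could pass the filter only with the lymphomas, so the counts of called genes are again a description. In Boxer lymphomas 6 of the 8 genes were called higher, against 18.6% of all genes: CLEC9A (log2 fold change 4.58 ± 0.94), XCR1 (4.38 ± 0.92), CD1E (4.18 ± 1.36), MPO (4.12 ± 0.79), S100A12 (3.21 ± 0.67) and IRF8 (1.60 ± 0.40). BATF3 had the same size of difference as over all lymphomas but did not pass (2.38 ± 0.90, limma adjusted p = 0.0688). The CD1E call (limma adjusted p = 0.041) ended in each of the 6 fits that left out 1 control or 1 Boxer lymphoma (0.074 to 0.133). It also ended by edgeR (0.0662), with no filter (0.054), with a pseudocount of 5 (0.104) and with sex (0.258) or age (0.815) as a covariate. The IRF8 call (0.0153) ended without control 1 (0.0599) and with sex (0.0886) or age (0.339). With age the calls of CLEC9A (0.139), XCR1 (0.08) and MPO (0.0807) ended too, and that of S100A12 held (0.0434).

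In other-breed lymphomas 5 of the 8 genes were called higher, against 13.8% of all genes: S100A12 (log2 fold change 5.33 ± 0.67), CD1E (4.57 ± 1.36), CLEC9A (4.50 ± 0.94), XCR1 (4.47 ± 0.92) and MPO (3.14 ± 0.79). This count is likewise a description. IRF8 (1.00 ± 0.40, limma adjusted p = 0.0976) and BATF3 (2.37 ± 0.90, 0.0833) did not pass, and both passed without other-breed lymphoma 1 (0.0385 and 0.0364). The MPO call (0.0201) ended without control 2 (0.0796), control 3 (0.0715), other-breed lymphoma 1 (0.0582) or other-breed lymphoma 3 (0.0562). The CD1E call (0.0372) ended without control 1 (0.0932), control 2 (0.128) or control 3 (0.0732), with a pseudocount of 5 (0.0767) and with sex as a covariate (0.0525). The CD1E difference was 2.75 without other-breed lymphoma 3 and 5.70 without other-breed lymphoma 2. With age as a covariate only S100A12 was called (0.00783), and the adjusted p was 0.113 for CLEC9A, 0.0647 for XCR1, 0.488 for CD1E and 0.149 for MPO.

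**Figure D2:**
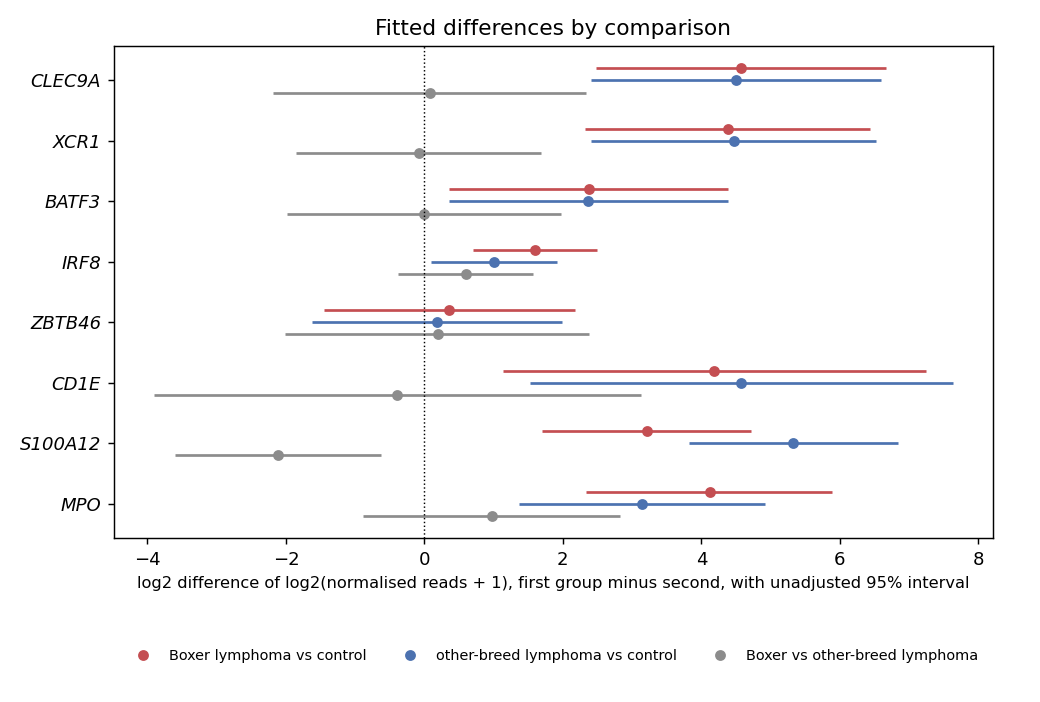
Fitted log2 difference for each gene (horizontal axis, first group minus second on the log2(normalised reads + 1) scale) with its unadjusted 95% interval, for Boxer lymphomas against controls, other-breed lymphomas against controls, and Boxer against other-breed lymphomas (n = 3 per group). The lymphoma groups are close for CLEC9A and XCR1, and S100A12 is the gene whose interval between the lymphoma groups lies wholly below 0 (-3.60 to -0.63), although its adjusted p is 0.881.

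No difference between Boxer and other-breed lymphomas passed the adjusted threshold. By limma 0 of the 8 genes and 0 of 15112 genes tested were called in either direction (0% of all genes). At an unadjusted p under 0.05, 753 genes passed (4.98%), and edgeR on the recovered reads called 0 genes and DESeq2 44 higher and 58 lower in Boxer lymphomas. S100A12 was the only one of the 8 genes without overlap, at 9.48 to 29.2 in Boxer and 55.2 to 82.8 in other-breed lymphomas (log2 difference -2.12 ± 0.63, interval -3.60 to -0.63, limma adjusted p = 0.881). Groups without overlap were seen for 10.7% of all genes in this comparison, 5.7% with the Boxer lymphomas lower. For CLEC9A the difference was 0.08, with an interval of -2.18 to 2.34, and for XCR1 it was -0.08 (-1.86 to 1.69). The intervals of CD1E (-3.91 to 3.13), BATF3 (-1.98 to 1.98), ZBTB46 (-2.01 to 2.38), MPO (-0.88 to 2.83) and IRF8 (-0.38 to 1.57) all included 0. For CLEC9A, XCR1, CD1E, BATF3 and ZBTB46 they allow a difference of more than 1 log2 unit in either direction.

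Taken singly, Boxer lymphomas 2 and 3 and other-breed lymphoma 2 were above every control for all 8 genes. Boxer lymphoma 1 and other-breed lymphoma 3 were above every control for 7, the exception being ZBTB46. Other-breed lymphoma 1 was above every control for 5, the exceptions being BATF3, IRF8 and ZBTB46. It was also the lowest of the 6 lymphomas for CLEC9A, BATF3 and IRF8, while its S100A12 and MPO ranked 2nd and 3rd. Its 7 reads of CLEC9A give a level of 8.24 with a counting interval of 3.31 to 17.0 normalised reads, and its 59 reads of S100A12 a level of 69.4 with an interval of 52.9 to 89.6.

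Boxer lymphoma 1 had another profile. It was the lowest lymphoma for XCR1 (counting interval 9.72 to 25.2) and ZBTB46 (20.7 to 41.4) and the highest for MPO (153 to 202). Boxer lymphoma 3 was the highest for XCR1 (75.4 to 115) and IRF8. Other-breed lymphoma 3 was the highest for CLEC9A, BATF3 and CD1E. The counting intervals of the lowest and highest lymphoma did not overlap for CLEC9A, XCR1, CD1E, BATF3, IRF8, ZBTB46, S100A12 or MPO, so the spread among lymphomas exceeded counting error for each of the 8 genes.

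**Figure D3:**
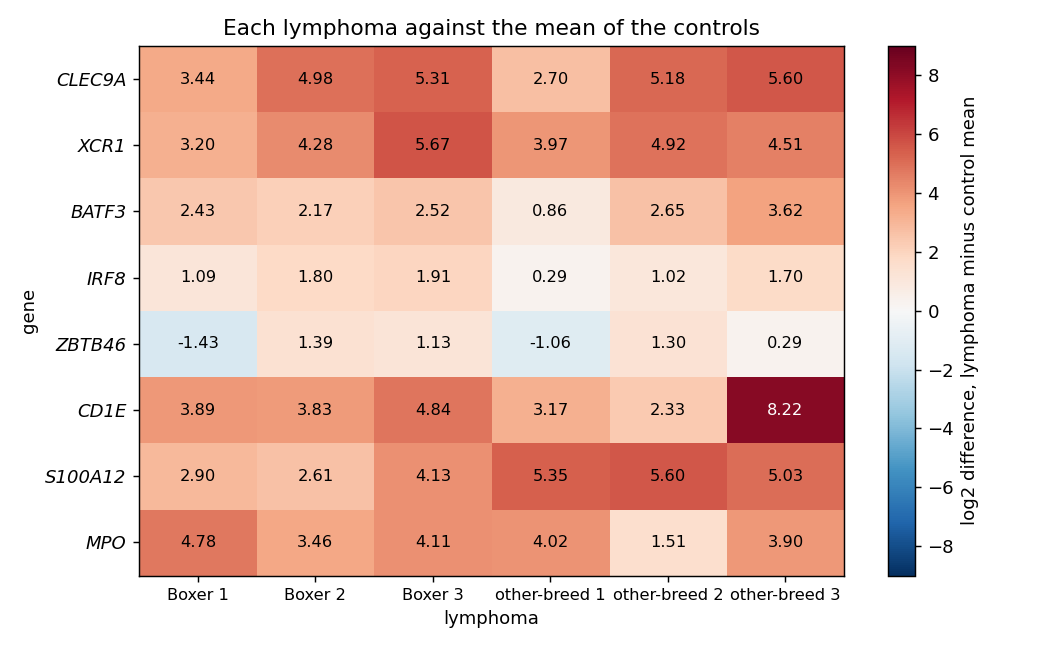
Difference of each lymphoma (columns) from the mean of the 3 controls for each gene (rows), in log2(normalised reads + 1), with the value printed in each cell and red for higher. The values run from -1.43 for ZBTB46 in Boxer lymphoma 1 to 8.22 for CD1E in other-breed lymphoma 3, and the S100A12 row is higher in the 3 other-breed columns (5.03 to 5.60) than in the Boxer columns (2.61 to 4.13).

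Other genes of dendritic cells were examined in 5 lists. In these and the later lists, genes could also pass the filter through the lymphomas alone, so counts of genes that rose are a description. Of all genes tested, 19.4% were higher by the same rule. In the list of type 1 dendritic cells, 8 of 11 genes were found, 7 were tested, 2 rose and 0 fell, with a median log2 fold change of 0.44. TLR3, a sensor of double-stranded RNA, rose from 3.37 ± 4.33 (SD, n = 3) to 43.6 ± 25.9 normalised reads (SD, n = 6), by 3.69 ± 0.78 (limma adjusted p = 0.00528), and CPNE3 rose by 1.12 ± 0.34. The other 5 tested did not pass: CADM1 (-0.69 ± 1.03), SNX22 (-0.53 ± 0.64), CD226 (0.23 ± 0.29), CLNK (0.44 ± 0.61) and THBD (3.38 ± 1.41). In the list of type 2 dendritic cells and CD1 genes, 6 of 11 were found, 4 were tested and 1 rose (median 1.62). That was ITGAX, the integrin chain CD11c, at 4.95 to 15.0 in the controls and 33.0 to 858 in the lymphomas (5.0 ± 0.91, limma adjusted p = 0.00268). CD207, the langerin of Langerhans cells, had 0 reads in all 9 libraries, and THBD of the type 1 list had 0 in the controls.

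Growth factor receptors of dendritic cells rose beside the markers. In the list of dendritic cell development, 9 of 10 genes were found and tested, 4 rose and 2 fell (median 1.09). FLT3, the receptor that drives dendritic cell production, rose from 22.1 ± 13.9 (SD, n = 3) to 120 ± 49.6 (SD, n = 6), by 2.45 ± 0.53 (limma adjusted p = 0.00607), and all 6 lymphomas were above the controls. SPI1, the myeloid factor PU.1, rose by 2.84 ± 0.60 and CSF2RA, a chain of the GM-CSF receptor, by 3.65 ± 0.82. IRF4, which acts in type 2 dendritic cells and in activated T cells, fell from 1636 ± 162 (SD, n = 3) to 245 ± 180 (SD, n = 6; -3.28 ± 0.79, limma adjusted p = 0.0098), and RELB fell by 0.80 (limma adjusted p = 0.0481).

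Of the 5 dendritic cell lists, that of mature, migrating cells had the highest median. Of its 11 tested genes (11 of 12 found), 7 rose and 1 fell, with a median of 3.21. FSCN1, the actin-bundling protein fascin, was at 9.91 to 12.3 in the controls and 1149 to 3026 in the lymphomas (log2 fold change 7.23 ± 0.30, limma adjusted p = 1.13e-06). IDO1, which breaks down tryptophan, rose by 5.75 ± 0.70 and CD83 by 2.5 ± 0.37. CD80, a costimulatory ligand, fell from 1059 ± 186 (SD, n = 3) to 215 ± 163 (SD, n = 6; -2.52 ± 0.44, limma adjusted p = 0.00222). In the list of plasmacytoid dendritic cells, 7 of 10 were found and tested, 0 rose and 1 fell (median 0.21), which was IL3RA, the interleukin 3 receptor, at 80.5 to 98.2 normalised reads in controls and 1.18 to 44.6 in lymphomas (-3.03 ± 0.98, limma adjusted p = 0.0351).

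Neutrophil genes beyond S100A12 and MPO moved in both directions. In the list of mature neutrophil and later granule genes, 13 of 19 were found, 10 were tested and 4 rose (median 2.34). MMP9 (log2 fold change 5.05 ± 1.11), PADI4 (3.52 ± 0.99) and LTF, lactoferrin (3.44 ± 0.86), rose, as did CSF3R, the receptor of the neutrophil growth factor G-CSF (3.08 ± 0.89, limma adjusted p = 0.0224). Of the primary granule genes, 5 of 10 were found and 3 tested (median -0.54). BPI rose (4.52 ± 1.22, limma adjusted p = 0.0166). CTSG, cathepsin G, fell from 28.3 ± 3.99 (SD, n = 3) to 5.02 ± 4.07 (SD, n = 6; -2.72 ± 0.84, limma adjusted p = 0.0294). ELANE, neutrophil elastase, which is made at the same stage as MPO, had 0 reads in the controls and 0 to 5.89 normalised reads in the lymphomas, too few to be tested. In the lymphomas MPO was at 17.3 to 176 normalised reads and BPI at 2.35 to 366, while ELANE and CTSG had few reads.

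S100A8, an alarmin gene of the same family, and CSF3R were, like S100A12, higher in each other-breed lymphoma than in any Boxer lymphoma. Of the list of calgranulin genes and their receptors, 4 of 5 were found and tested and 2 rose (median 1.98), which were S100A8 and the receptor TLR4 (2.26 ± 0.46, limma adjusted p = 0.00444). S100A8 was at 0 to 8.26 normalised reads in controls, 9.35 to 37.5 in Boxer and 44.6 to 65.5 in other-breed lymphomas. Against controls it rose by 3.19 ± 0.88 (limma adjusted p = 0.0187), and between the lymphoma groups it differed by -1.76 ± 0.71 (limma adjusted p = 0.881). CSF3R was at 2.73 to 27.8 in controls, 15.2 to 65.6 in Boxer and 71.8 to 217 in other-breed lymphomas (-1.91 ± 0.71 between the lymphoma groups, limma adjusted p = 0.881). None of these 3 differences between the lymphoma groups passed over all genes, and S100A8 and CSF3R were singled out after their values were seen. Of the 16 genes of the neutrophil and calgranulin lists tested between the lymphoma groups, 8 had a lower and 8 a higher fitted level in Boxer lymphomas, and S100A8 and CSF3R were the 2 without overlap, against 5.7% of all genes separated with Boxer lymphomas lower. Among the 8 with a higher fitted level in Boxer lymphomas were MMP9 (1.22 ± 1.42), BPI (0.97 ± 1.64) and TLR4 (0.56 ± 0.55), none of which passed (limma adjusted p = 0.914, 0.944 and 0.901).

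**Figure D4:**
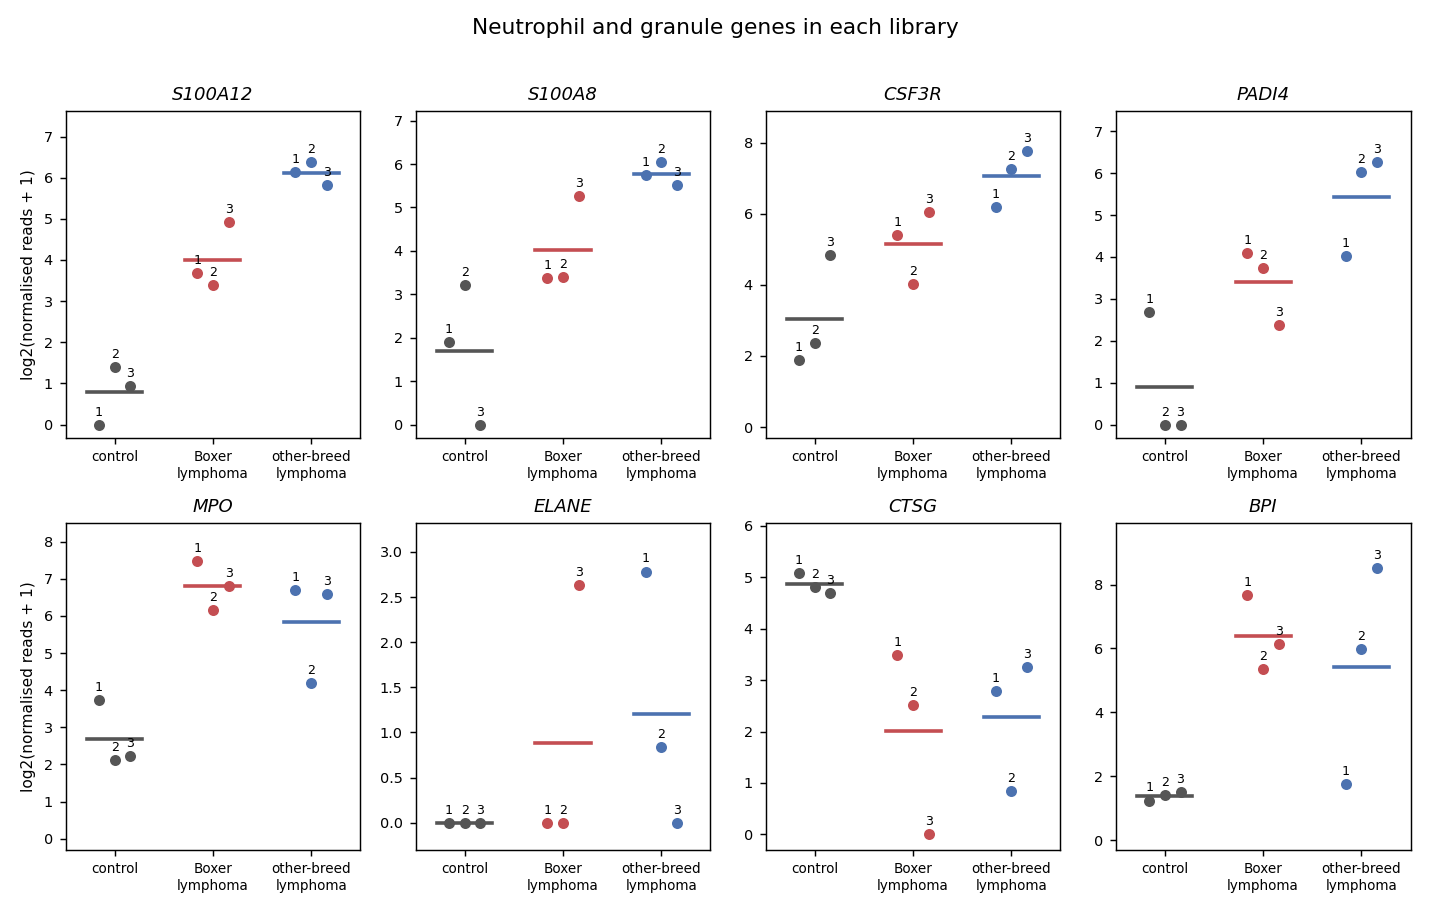
Neutrophil and granule genes by library, as log2(normalised reads + 1), with replicate numbers at the points and bars at the group means of the log2 values (n = 3 per group). S100A12, S100A8 and CSF3R are higher in each other-breed lymphoma than in any Boxer lymphoma, MPO is lowest in other-breed lymphoma 2 among the lymphomas, ELANE stays at or under 5.89 normalised reads and CTSG is highest in the controls.

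Among the lists of other cell types, that of monocytes and macrophages had the most genes called higher. Of 11 tested monocyte and macrophage genes (12 of 15 found), 10 rose and 0 fell. Only 1 of those found was at 10 or more normalised reads in all 3 controls. Their summed level was 119 to 199.8 normalised reads in controls, 3948 to 9435 in Boxer and 819 to 18600 in other-breed lymphomas. LYZ alone made up most of the sum, at 69.5 to 133 in controls, 2715 to 7903 in Boxer and 616 to 16931 in other-breed lymphomas. VSIG4 was at 0 in all controls, CSF1R, the receptor of the macrophage growth factor, was at 34.1 to 1246 in lymphomas, and LYZ, C1QC and TYROBP rose by 5.34, 3.62 and 5.26. Other-breed lymphoma 1 had the lowest macrophage sum and also the lowest CLEC9A, BATF3 and IRF8, but not the lowest S100A12. Other-breed lymphoma 2 had a macrophage sum of 2718, below all 3 Boxer lymphomas, with CLEC9A at 50.5 and S100A12 at 82.8. The part of macrophages and monocytes in the levels of IRF8, CD1E, S100A12 and MPO was not tested.

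Endothelial genes were read beside ZBTB46. Of 9 tested (9 of 10 found) 4 rose, among them CDH5 (5.65 ± 1.63), ESAM (4.62 ± 0.99) and EGFL7 (0.88 ± 0.28), and 0 fell. PECAM1 did not pass (2.75 ± 1.26, limma adjusted p = 0.113). Their summed level was 514 to 849 in controls, 1702 to 4620 in Boxer and 394 to 6989 in other-breed lymphomas. Other-breed lymphoma 2 had the lowest endothelial sum (394), with CDH5 at 6.31 and PECAM1 at 29.97, and had 203 normalised reads of ZBTB46, the highest level but that of Boxer lymphoma 2. The part of endothelial cells in the ZBTB46 level was not tested.

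B cell genes were read beside IRF8. Of 10 found and tested, 0 rose and 0 fell (median -0.68), and their sum was 1815 to 2098 in controls, 904 to 2036 in Boxer and 538 to 6489 in other-breed lymphomas. CD79A was at 652 to 969 in sorted controls and 246 to 1014 in lymphomas (-0.68 ± 0.46, limma adjusted p = 0.272), so reads of B cell genes were present in the controls. Other-breed lymphoma 1 had the highest B cell sum and the lowest IRF8 of the lymphomas. Most of that sum was the single gene MS4A1, at 5123, and its CD79A, at 895, was below that of Boxer lymphoma 1 (1014). Other-breed lymphoma 2 had the lowest B cell sum, with IRF8 at 456. The part of B cells in the IRF8 level was not tested.

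Thymocyte and other granulocyte genes were low or uneven. Of the thymocyte list 8 of 9 were found and 3 tested, with 0 called. RAG1 was at 0 in all libraries and PTCRA at 0 in all controls, and DNTT did not pass (0.43 ± 1.58, limma adjusted p = 0.847). In other-breed lymphoma 3, where CD1E was at 619, DNTT was at 70.0 and RAG1 at 0. Of the eosinophil, basophil and mast cell list, 7 of 10 were found, 1 was tested and 0 passed, with GATA2 and CPA3 at 0 in all controls. The sums of T cell genes were at 70570 to 72900 in controls and, over a wider range on both sides, at 50730 to 91260 in lymphomas. Of 9 tested T cell genes 1 rose (CD3G, 0.50 ± 0.16) and 0 fell, and CD3E did not pass (-0.32 ± 0.19, limma adjusted p = 0.211). CD5, named after its values were seen, was at 10272 to 10649 in controls and 265 to 4320 in lymphomas. It did not pass over all lymphomas (-2.09 ± 0.78, limma adjusted p = 0.0591). In Boxer lymphomas it was the 1 T cell gene called lower (-2.74 ± 0.84, limma adjusted p = 0.0338), and 0 were called higher.

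**Figure D5:**
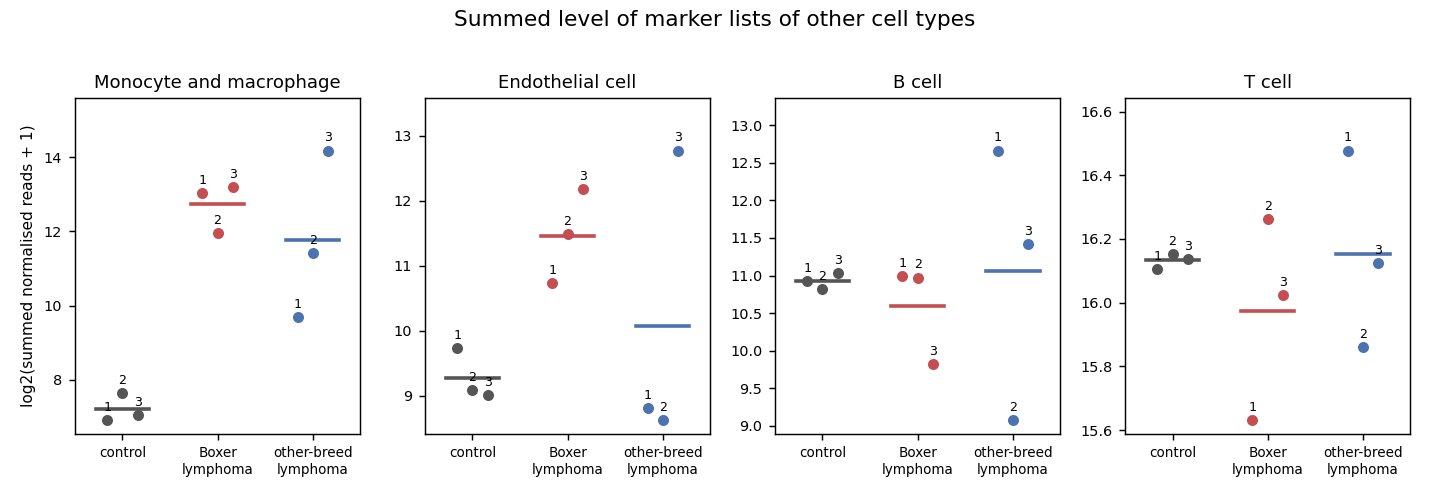
Summed normalised reads of the marker lists of 4 cell types in each library, as log2(sum + 1), with replicate numbers at the points and bars at the group means of the log2 values (n = 3 per group); the vertical axes do not start at 0. The macrophage sum, most of which is LYZ, is higher in all 6 lymphomas than in the controls. The endothelial sum is not (other-breed lymphomas 1 and 2 at 448 and 394 against 514 to 849), and the T cell sums stay within 50730 to 91260. The B cell sum of other-breed lymphoma 1 is mostly MS4A1.

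For each of the 8 genes, the genes with the most similar pattern were sought by the root mean square difference of centred log2 values over the 9 libraries. This difference is not scaled by the spread of a gene and tends to be larger for genes that vary more. For CLEC9A the nearest genes were ZNF366 (0.45), ADAMTS2 (0.50) and CLMN (0.54). ZNF366 was at 2.48 to 4.63 normalised reads in controls and 38.8 to 236 in lymphomas, lowest like CLEC9A in other-breed lymphoma 1. For XCR1 they were WWC3 (0.53), RAB7B (0.55) and ANKRD45 (0.64), and for BATF3 RBFOX2 (0.40), EVI5 (0.43) and CHPT1 (0.49).

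The smallest difference of all was that of CTSH, the lysosomal protease cathepsin H, from IRF8 (0.20). CTSH was at 229, 319 and 463 in controls 1 to 3, at 926, 1471 and 1618 in Boxer lymphomas 1 to 3 and at 579, 735 and 1334 in other-breed lymphomas 1 to 3. It kept the order of IRF8 within each of the 3 groups. FAM177A1 and MESDC1 (both 0.30) came next for IRF8. For ZBTB46 the nearest were AGA (0.52), LAMB3 (0.53) and SAC3D1 (0.56).

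CD1E, with its wide range, was nearest to CFP, which encodes the complement factor properdin (0.81), CLEC5A (0.85) and IGF2 (0.85), all of which peaked in other-breed lymphoma 3. For S100A12 the nearest were NTNG2 (0.72), PRPH (0.75) and CYP4F3 (0.77). CYP4F3, a hydroxylase of leukotriene B4, was at 0 to 2.78 in controls, 3.79 to 23.9 in Boxer and 35.3 to 93.8 in other-breed lymphomas. For MPO they were GPD1L (0.60), GRIN2A (0.63) and the mitotic spindle gene TPX2 (0.64). No gene was among the 3 nearest of more than 1 of the 8.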

How the data were processed

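RNA of 9 libraries was sequenced after poly(A) enrichment, per the labels' protocols. Each deposited file gives a signal for every gene: the reads the authors counted, scaled by 1 size factor per library. TopHat2, HTSeq and DESeq2 with CanFam3.1 are named in the submitters' processing notes; versions and strandedness are not given in the sources used here. All values (100%) were whole multiples of 1 read within 0.01 reads, and whole reads were recovered. The main test was limma 3.58.1 (R 4.3.3) with a mean-variance trend on log2(value + 1), which understates changes of low genes, for genes with at least 10 in at least 3 fitted libraries, with Benjamini-Hochberg adjustment over all genes tested (threshold 0.05). Lymphomas against controls used 2 groups; each lymphoma group against controls used a 3-group fit over all 9 libraries; Boxer against other-breed lymphomas used the lymphomas alone. Alternatives included edgeR 4.0.16 and DESeq2 1.42.0 on the recovered reads (edgeR: 3100 genes higher and 2290 lower in lymphomas), TMM scaling, other filters and pseudocounts, sex, age, the replicate number as a block and leaving out each library. The fits were tested on simulated data. Ratios of pooled reads carry exact 95% intervals that cover counting error only. The genes and lists were chosen with earlier results of these data known. Named from each list were up to 3 genes per direction with the smallest p past the threshold and 11 check genes, and, for likeness, the 3 nearest genes with a symbol. List genes not found by symbol were not analysed here, the result of 1 tested gene of the mature neutrophil list is not reported here, and no batch is named in the labels.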

Additional observations from a re-analysis of the deposited data

Results flagged for a closer look

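Among the 6 lymphomas, single libraries stood apart from the rest in normalised reads, by a gap to the nearest library that took up most of their whole range (Dixon's 95% limit, which chance passes in about 1 in 20 groups). CD1E was at 618.8 in other-breed lymphoma 3, with 9.46 to 58.3 in the other 5. The same lymphoma stood apart for IDO1 (475.5) and CD80 (541.3). MMP9 was at 644.8 in Boxer lymphoma 1. DNTT was at 2277 in Boxer lymphoma 2, which had CD1E at 28.4. MS4A1, the B cell antigen CD20, was at 5123 in other-breed lymphoma 1, which had the lowest IRF8 of the lymphomas. No explanation was tested for these values.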

How the results depend on the processing

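Differences of CLEC9A, XCR1, CD1E, BATF3, IRF8, S100A12 and MPO from controls kept their direction in every fit run. With age as a covariate, the genes of the 8 called higher fell from 7 to 2 over all lymphomas, from 6 to 1 in Boxer and from 5 to 1 in other-breed lymphomas, and all genes called higher and lower were 1048 and 885, 1025 and 919, and 950 and 858. With sex as a covariate 4 of the 8 were called over all lymphomas, and in Boxer lymphomas 1768 genes were higher and 1413 lower. With a minimum of 50 normalised reads only 5 of the 8 were tested, and 4 were called over all lymphomas and 3 in other-breed lymphomas; 3 were called when other-breed lymphomas and controls were fitted alone. The cause of the changes with age and sex was not tested. Because all controls were aged 1 year, the age term came from the lymphomas alone, and fits with it cannot separate age from disease. Leaving out 1 library at a time gave 4 to 7 of the 8 genes over all lymphomas (4 without control 2), 5 to 7 in Boxer and 3 to 6 in other-breed lymphomas (3 without control 2 or control 3). All genes called higher and lower then numbered 1866 to 3291 and 1194 to 2605 over all lymphomas, 1699 to 3126 and 1076 to 2509 in Boxer, and 1120 to 2278 and 569 to 1854 in other-breed lymphomas, the lowest each without control 2. Without other-breed lymphomas 1 and 2 together, an alternative chosen after seeing the data, 7 of 8 genes were called. Between the lymphoma groups DESeq2 called 44 genes higher and 58 lower in Boxer lymphomas, a fit over all 9 libraries 2 higher, a pseudocount of 5 2 lower, and fits without 1 library 0 to 1 in each direction; none was among the 8.

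ZBTB46 changed sign with age as a covariate, at -0.28 over all lymphomas, -0.21 in Boxer and -0.33 in other-breed lymphomas, and ranged over -0.15 to 1.26 and -0.38 to 0.80 in the last 2 comparisons when 1 library was left out. Between the lymphoma groups, differences near 0 changed sign. CLEC9A was at -0.18 by edgeR, -0.19 by DESeq2, -0.10 with sex, -0.09 with age and -0.82 to 0.65 without 1 library. XCR1 was at 0.18 by edgeR, 0.19 by DESeq2 and -0.73 to 0.51 without 1 library. BATF3 was at -0.40 by edgeR, -0.41 by DESeq2, -0.02 with TMM scaling, -0.07 with a pseudocount of 5, -0.36 with sex, -0.16 with age and -0.76 to 0.62 without 1 library. Without 1 library, CD1E ranged over -1.51 to 1.43 and ZBTB46 over -0.43 to 1.09. DESeq2 gave no adjusted p for CD1E.

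Same-numbered libraries share only a number: their deviations from the group means correlated at -0.136 to 0.104. With the replicate number as a block, 6 of the 8 genes were called over all lymphomas, with BATF3 at an adjusted p of 0.0564, 6 in Boxer and 6 in other-breed lymphomas, where IRF8 passed (0.0238). Depth limits CLEC9A, XCR1, CD1E and S100A12 most, with 2 to 4 reads each in the 3 controls together.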
